A study of Mus musculus with 6 samples.

Results

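The mitochondrial ribosomal proteins described here are the genes whose symbol starts with Mrpl or Mrps followed by a digit, with pseudogene symbols left out. The rule found 77 of the 16123 genes for which liver expression was listed. By the structural lists used here, 50 of them encode proteins of the large subunit of the mitochondrial ribosome and 26 proteins of the small subunit. The remaining member, *Mrps36*, carries a ribosomal name although its protein is now placed with the oxoglutarate dehydrogenase complex. RNAseq was carried out on liver from male mice, 3 libraries from WT mice of strain C57BL/6Rj and 3 from KO mice of strain C57BL/6JRj-Txndc5<em2Mdnp>/Ciba, to ask how loss of *Txndc5*, a protein disulfide isomerase of the endoplasmic reticulum, alters the hepatic transcriptome. The KO mice lack exon 3 of *Txndc5* in the whole body, and all of them carry the em2 allele of 1 line. Mice of both genotypes were 2 months old, received a purified chow diet for 4 weeks and were fasted for 16 h, and each library held polyA RNA from a pool of 3 mice. The strain labels differ between the genotypes, but mice of both came from crosses of heterozygous parents according to the study, and a pool gives no spread between its mice.

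Mitochondria keep their own ribosome, which makes the few membrane proteins of the respiratory chain and ATP synthase that are encoded in mitochondrial DNA. Its RNA comes from mitochondrial DNA, but all of its proteins are encoded in the nucleus, translated in the cytosol and imported. Some of these proteins have counterparts in bacterial ribosomes and others were added in the mitochondrial lineage, and liver, rich in mitochondria, uses the whole set.

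*Txndc5* itself had a deposited value of 2697 in WT and 90.8 in KO, so the labels held for the targeted gene. The libraries held 44040160 to 46050030 clean reads, of which 91.63% to 93.66% mapped and 62.19% to 65.69% mapped uniquely. Neither clean reads nor the mapping rate differed between genotypes beyond the spread of the pools (two-sided exact permutation p = 0.3 and 0.5, n = 3 per genotype, smallest possible p 0.1). All 5 hepatocyte markers were abundant, with summed values of 2519370 in WT and 2301160 in KO, and 1 of them was higher in KO. The cholangiocyte and lymphocyte markers summed to at most 59.7 in either genotype. The 3 red cell markers summed to 82852.7 in WT and 128398 in KO and were all higher in KO. Of 4 Kupffer cell markers 3 were higher in KO, with sums of 1938 and 2262. The 3 stellate cell markers summed to 1837 and 1505, with 1 of them, *Reln*, higher in KO. The 3 sinusoidal endothelium markers summed to 1382 and 1290, and those of muscle, fat and pancreas to 11.4 and 22.7. No marker was at 0, and the part of these differences in the results below was not tested. In bulk liver RNA, fewer cells of a type and less RNA per cell cannot be told apart.

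For each gene the authors listed 1 expression value per genotype, on the scale of reads divided by the size factor of the library, with the difference between genotypes drawn toward 0 by their model. These values have no replicate error, so that fold limits stand in for a test, and all log2 ratios of KO over WT below are of the deposited value plus 1. The mitochondrial ribosomal proteins were mostly lower in KO, but by little. Of the 77 members, 69 (89.6%) had a lower value in KO, against 56.7% of all genes, and 20 (26%) were lower by 1.2-fold or more, against 18% of all genes. No member was higher in KO by 1.2-fold, a limit that 10.2% of all genes passed, and none differed by 1.5-fold in either direction, limits passed by 4.31% of all genes downward and 1.27% upward. The log2 ratios of the members ran from -0.52 to 0.22 with a median of -0.18, and the median over all genes was -0.02. After centring on the median of genes whose mean reached 10, 65 members stayed below 0, 13 were lower by 1.2-fold and 1 was higher, so part of the count rests on a small shift of the whole table.

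The small subunit stood slightly below the large one. In the small subunit 25 of 26 members were lower in KO, 11 of them by 1.2-fold (42.3%), with a median of -0.22. In the large subunit 43 of 50 were lower, 9 of them by 1.2-fold (18%), with a median of -0.17. Over all genes 56.7% were lower and 18% by 1.2-fold. The share of the large subunit past 1.2-fold was therefore that of all genes. The 10 small-subunit proteins without a bacterial counterpart were all lower, 5 by 1.2-fold, and had a median of -0.27. The 16 small-subunit proteins with a bacterial counterpart had a median of -0.19, the 29 such proteins of the large subunit -0.17 and the 21 mitochondria-specific proteins of the large subunit -0.15. These medians describe genes, which are no replicates of a genotype, and the difference between the subunits was not tested. The 5 ribosome subunits that carry other names were also all lower in KO, 3 of them by 1.2-fold. Their log2 ratios were -0.44 for *Gadd45gip1*, a protein near the exit tunnel, -0.33 for *Aurkaip1*, -0.29 for *Ptcd3*, a pentatricopeptide repeat protein of the small subunit, -0.22 for *Chchd1* and -0.15 for the GTP-binding protein *Dap3*.

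**Figure D1:**
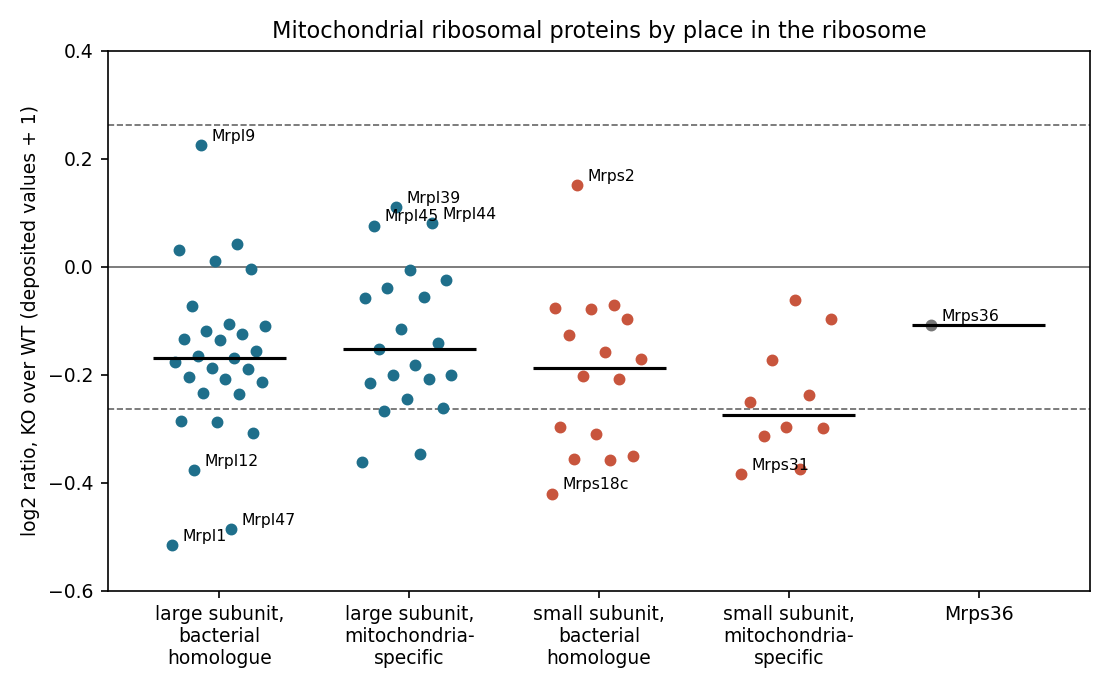
The log2 ratio of KO over WT (deposited value plus 1) of each of 77 members, a point per gene, by place in the ribosome, with the group median as a bar and dashed lines at 1.2-fold. Most points lie between 0 and the lower dashed line, 20 lie below it and none above the upper one.

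The lowest ratio belonged to *Mrpl1* (GRCm38 chr5:96209493-96266727, plus strand), the counterpart of the bacterial protein that forms the mobile side stalk, with values of 98.4 in WT and 68.5 in KO and a log2 ratio of -0.52. *Mrpl47*, a protein of the tunnel exit, followed with 73.3 and 52.1 (-0.49), and *Mrps18c* with 141 and 105 (-0.42). *Mrps31*, a mitochondria-specific protein of the small subunit, had 332 and 254 (-0.38). These 4 genes are weakly to moderately read, whereas the fifth, *Mrpl12*, was the most highly read member of all. *Mrpl12* encodes the protein of the flexible stalk that recruits the translation factors, and it also binds the mitochondrial RNA polymerase. Its values were 4409 (WT) and 3396 (KO), for a log2 ratio of -0.38. *Mrpl11*, which forms the base of the same stalk, had 386 and 335 (-0.20).

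At the other end, *Mrpl9* had values of 295 (WT) and 344 (KO), for a log2 ratio of 0.22, and *Mrps2*, a small-subunit protein with a bacterial counterpart, had 659 and 731 (0.15). *Mrpl39* followed with 0.11, *Mrpl44*, which has a ribonuclease III-like fold, with 0.08 and *Mrpl45*, which lies where the tunnel opens toward the inner membrane, with 0.08. None of these 5 reached 1.2-fold. *Mrps12*, the counterpart of a protein of the bacterial decoding centre, had 738 and 676 (-0.13). The 3 paralogs of the Mrps18 family, of which a ribosome is thought to hold several at different places, were all lower in KO, at -0.20 for *Mrps18a*, -0.24 for *Mrps18b* and -0.42 for *Mrps18c*. Only *Mrps18c*, the least read of them, passed 1.2-fold.

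Levels per length differed far more between members than between genotypes. Per kb of the longest annotated transcript, the mean of both genotypes ran from 15.9 to 2966 around a median of 189, which is 187-fold from the lowest to the highest member. *Mrpl12* led with 3350 per kb in WT and 2581 in KO, 1.70 times the next. *Mrpl14* followed with a mean of 1749 per kb, *Mrpl54* with 1413, *Mrps24* with 1297 and *Mrpl34* with 1201. At the bottom stood *Mrps25* with 15.9 per kb, *Mrpl47* with 18.6, *Mrpl1* with 23.5, *Mrpl19* with 26.8 and *Mrps22* with 34.4. The order in WT and in KO was nearly the same, with a Spearman correlation of 0.99 across the 77 genes, a description over genes of the same libraries. The choice of transcript matters more: of the highest 5 and of the lowest 5, 3 each remained with the median annotated transcript, and 3 each with the length listed beside the values.

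**Figure D2:**
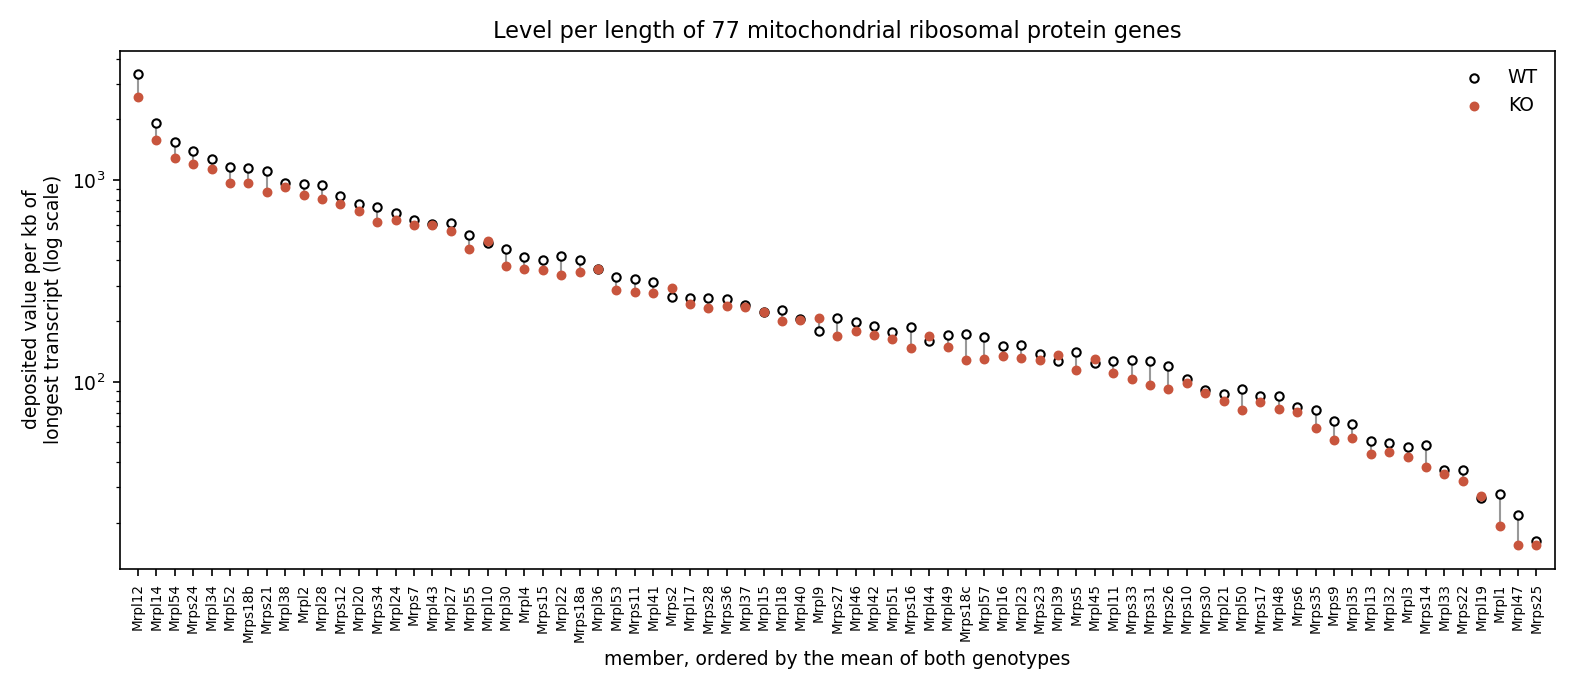
Deposited value per kb of the longest annotated transcript, on a log scale, for 77 members in order of the mean of both genotypes, with WT as open and KO as filled circles. The order spans 187-fold, and for most members the WT circle lies just above the KO circle.

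Short transcripts as a class were lower in KO, and the members are short. The median longest transcript of the members was 1849 bases against 3260 over the table, and by the length listed with the values 33 of 77 members were under 1000 bases. Of these 33, 32 were lower in KO at a median log2 of -0.21, and 10 (30.3%) were lower by 1.2-fold. The 538 other genes under 1000 bases whose mean lay in the range of the members, 62.7 to 3903, were 89.6% lower, with a median of -0.19, and 31.8% of them passed 1.2-fold downward. The medians of both sets lay close together, and the difference between them was not tested. From 1000 to under 2000 bases, 28 of 32 members were lower with a median of -0.16, and 67.6% of 1783 other genes were lower with a median of -0.08. From 2000 to under 4000 bases, 7 of 9 members were lower with a median of -0.20, whereas the other 3080 genes of that length had a median of -0.00. Of the 3 members of 4000 bases or more, 2 were lower with a median of -0.06, and 2152 other genes had 0.03. The Spearman correlation of length with log2 ratio was 0.25 across the members and 0.23 across 7553 other genes, given as a description.

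With each ratio centred on the other genes of its length class, a step chosen after seeing the data, 48 of 77 members were below 0, the median was -0.05, 6 were lower by 1.2-fold and 1 was higher. The count of 20 members lower by 1.2-fold therefore held only for values that were not set against genes of the same length. Whether length itself or a property that goes with it moved the ratios was not tested. The 81 cytosolic ribosomal proteins, most of them short as well, were lower in KO in 79 cases, 39 of them by 1.2-fold, with a median of -0.26.

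**Figure D3:**
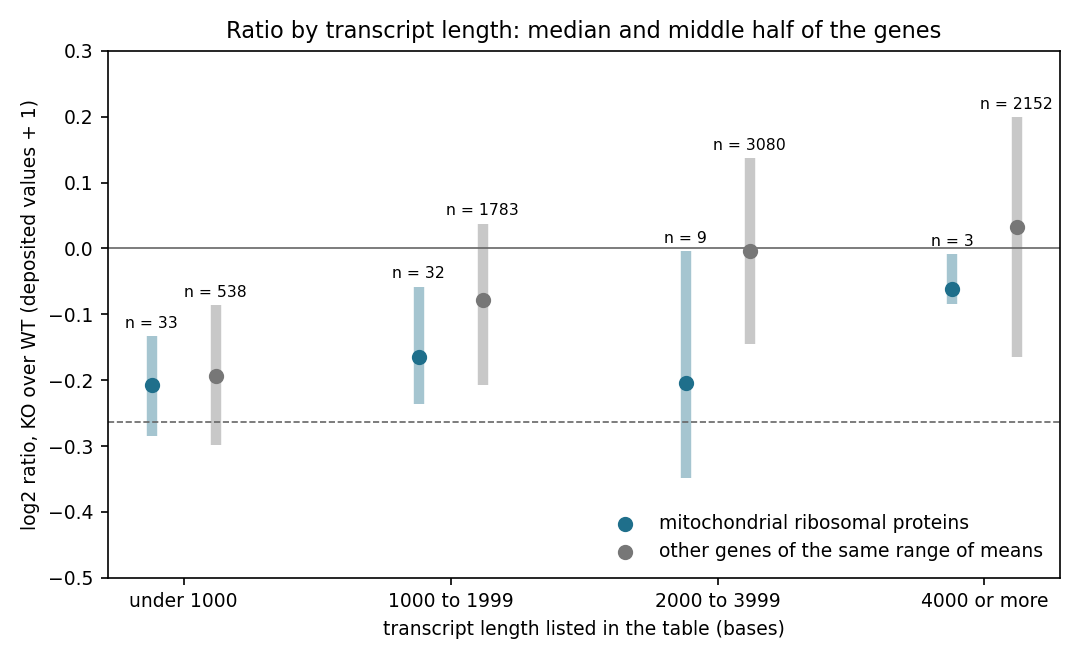
Median log2 ratio of KO over WT (points) and the range between the quartiles (bars) by listed transcript length, for the members and for other genes within the members' range of mean values. Under 1000 bases both sets lie near -0.2, and in the next classes up to 4000 bases the members lie below the other genes.

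Reads per library could be recovered for weakly read genes, because the mean of both deposited values is the mean over 6 libraries of whole reads divided by a size factor. Of the 77 members, 13 had a sum of normalized reads up to 900 and 10 of these had a unique solution, while *Mrps18c*, *Mrps33* and *Mrps14* did not and the other 64 lay above the limit. The recovered libraries carry a genotype but no pool number, and are called WT-1 to WT-3 and KO-1 to KO-3 here, by falling size factor, which was 1.22, 0.879 and 0.818 for WT and 1.31, 1.04 and 0.886 for KO. Above a sum of 400, solutions were accepted only where their ratio of genotypes was near the deposited one. Each library also had to lie within a range around the mean of its genotype. For 9 of the 10 members the direction and the approximate size of the difference were thus given in advance. The libraries show the spread, within the limits of that range. *Mrpl47*, with a sum of 376, was solved without these conditions.

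For *Mrpl47* the normalized reads were 89.8, 99.0 and 37.9 in the WT libraries and 70.1, 37.7 and 41.8 in the KO libraries. Library WT-3 lay as low as the lowest KO libraries, so the genotypes overlapped. For *Mrpl1* the WT libraries held 146, 83.0 and 75.8 and the KO libraries 111, 47.3 and 37.3. In both genotypes library 1 was highest, and KO-1 exceeded WT-2 and WT-3. The limma log2 difference was -0.53 with a standard error of 0.46 for *Mrpl47* and -0.73 with a standard error of 0.46 for *Mrpl1* (limma, Benjamini-Hochberg adjusted p = 0.999 for both).

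*Mrps9*, the counterpart of a bacterial protein of the small-subunit head, had 178, 156 and 136 in WT and 162, 111 and 94.8 in KO. *Mrps22*, which is specific to mitochondria, had 128, 116 and 119 in WT and 130, 94.6 and 92.6 in KO. In both of them KO-1 lay within or above the WT values and the other two below all of them. *Mrpl32*, which is cut by a protease of the inner membrane before it enters the ribosome, had 167, 146 and 137 in WT and 139, 135 and 131 in KO. Its value in KO-1 passed the lowest WT library by little, and its exact permutation p of 0.2 was the lowest among the 10 members (two-sided, n = 3 per genotype).

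The remaining 5 members differed by less. *Mrps6* had 58.8, 94.4 and 99.0 in WT and 78.5, 76.3 and 81.3 in KO, so that the KO libraries fell inside the WT range. *Mrps25* had 75.9, 126 and 94.2 in WT and 101, 84.0 and 97.1 in KO, again inside it. *Mrpl33* had 76.8, 163 and 63.6 in WT and 98.3, 83.0 and 104 in KO, with WT-2 far above the rest. *Mrpl21* had 114, 117 and 66.0 in WT and 104, 73.4 and 96.0 in KO. *Mrpl19*, the counterpart of a bacterial protein at the subunit interface, was the only one of the 10 with a higher mean in KO, with 123, 138 and 135 in WT and 120, 137 and 151 in KO. In *Mrpl21* and *Mrpl19*, too, the genotypes overlapped.

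Over the 10 members, 9 had a lower mean of normalized reads in KO, against 60.4% of the 5090 genes tested, a direction taken from the deposited values for all but *Mrpl47*. In no member did the genotypes stay apart, against 5.23% of the genes tested. limma called 0 of the 10 members at an adjusted p under 0.05 and 0 at an unadjusted p under 0.05. Over all 5090 genes the calls were 0 (0%) and 79 (1.55%). The summed normalized reads of the 10 members were 1158, 1237 and 962 in the WT libraries and 1115, 880 and 927 in the KO libraries, so that KO-1 lay above WT-3.

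**Figure D4:**
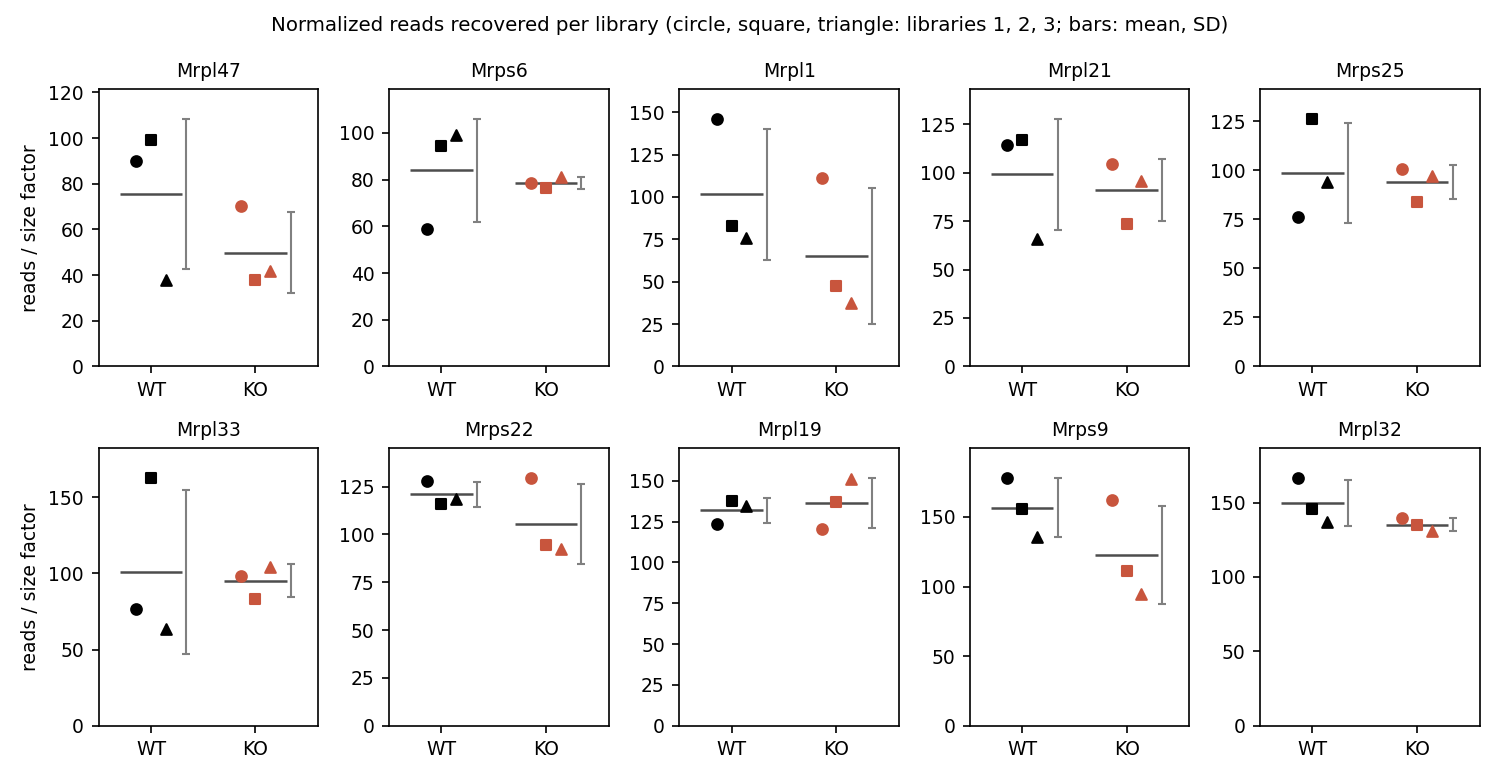
Normalized reads (reads divided by size factor) per recovered library for the 10 members with a unique solution, 3 WT and 3 KO libraries each, with the mean as a line and the SD as a bar. WT and KO points overlap in every panel.

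The libraries themselves differed by transcript length. Genes of 4000 bases or more deviated from their mean over the 6 libraries by a median log2 of 0.63 in WT-1 and 0.38 in KO-1, and by -0.28 to -0.15 in the other 4. Genes under 1000 bases deviated by 0.40 in WT-2 and by -0.15 to -0.02 in the other 5. The 10 members deviated by 0.21 in both WT-1 and WT-2, -0.01 in WT-3, and 0.12, -0.21 and -0.05 in the KO libraries. Their median limma difference was -0.11 with all libraries and 8 of 10 were lower in KO, 1 fewer than by the means, because *Mrpl33* stood at 0.03 on the log scale. Without WT-2, the library richest in short genes, the median was -0.06 and 5 of 10 were lower, and without KO-2 it was -0.09 and 6 of 10 were lower. Leaving out KO-3 gave -0.12 with 10 of 10 lower. Leaving out KO-1, WT-1 or WT-3 gave -0.18, -0.19 and -0.23 with 8, 9 and 8 of 10 lower. Over all 5090 genes the median was -0.05 with all libraries, -0.10 without WT-2 and -0.04 without KO-2. It was -0.004 without KO-3, and -0.11, 0.05 and -0.12 without KO-1, WT-1 or WT-3. Without WT-2 the median of the members was thus not below that of all genes. For 9 of the 10 members the direction over all libraries was given in advance by the deposited values. The part of WT-2 in the deposited values of the other members was not tested, since those values hold no libraries.

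**Figure D5:**
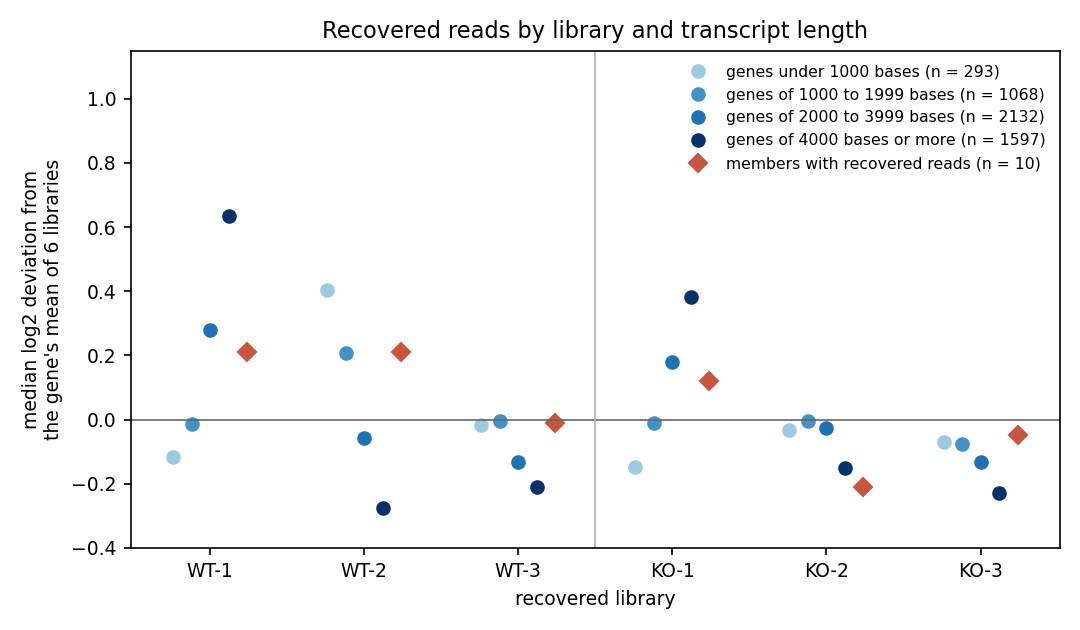
Median log2 deviation of normalized reads from each gene's mean over 6 recovered libraries, by listed transcript length (circles) and for 10 members (diamonds). Long genes are highest in WT-1 and KO-1, short genes in WT-2, and the members are highest in WT-1 and WT-2.

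Genes that act with the ribosome went both ways. Of 70 measured genes of 4 lists (translation factors, aminoacyl-tRNA synthetases, assembly and rRNA modification, and transcription and RNA handling), 46 (65.7%) were lower in KO, 14 (20%) by 1.2-fold, and 5 (7.14%) were higher by 1.2-fold, around a median log2 of -0.08. These shares are near those of all genes, 56.7%, 18% and 10.2%. Of the 15 translation factors, 5 were lower and 2 higher by 1.2-fold. *Guf1*, an elongation factor of the EF4 type, had 62.6 in WT and 41.6 in KO (-0.58), and *Slirp*, which stabilises mitochondrial mRNAs, 116 and 80.3 (-0.53). The initiation factor *Mtif2* stood at -0.36 and the elongation factor *Tsfm* at -0.26. *Gfm2*, which splits ribosomes after termination, was higher, with 359 and 441 (0.30), as was *Mtfmt*, which formylates the initiator tRNA (0.30).

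The 17 aminoacyl-tRNA synthetases centred on -0.02, with 1 lower and 1 higher by 1.2-fold, the latter being *Lars2* for leucine with 118 and 149 (0.34). Of the 23 assembly and rRNA modification genes, 18 were lower, 4 of them by 1.2-fold and none higher, among them *Mpv17l2* with 821 and 658 (-0.32) and *Rbfa* with 838 and 681 (-0.30). Of the 15 genes of transcription and RNA handling, 4 were lower and 2 higher by 1.2-fold. The lower ones included *Pnpt1*, the polynucleotide phosphorylase, with 79.0 and 46.6 (-0.75), and the transcription factors *Tfb2m* (-0.35) and *Tfam* (-0.26). The nuclease subunit of mitochondrial RNase P, listed as *1110008L16Rik*, was higher with 115 and 143 (0.31). The other subunits of that enzyme went the other way. *Trmt10c*, weakly read at a mean of 47.3, had 60.3 and 34.2 (-0.80), and *Hsd17b10* had 8159 and 7389 (-0.14). Of 13 proteins encoded in mitochondrial DNA that were looked for, 0 were found among the listed genes, so no value can be given for them.

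The members share features of position that the rule did not use. They lie on 17 chromosomes, at most 10 on any of them. For 23 members (29.9%) a protein-coding gene on the opposite strand starts within 1000 bases upstream of their own start or a short way past it. The same held for 10.6% of the 15028 protein-coding genes placed. Several such partners also serve mitochondria. *Mrps12* (-0.13) faces *Sars2*, the mitochondrial seryl-tRNA synthetase, with 280 in WT and 253 in KO (-0.15), and *Mrpl36* (0.01) faces *Ndufs6* of complex I, with 1216 and 993 (-0.29). *Mrpl49* (-0.20) faces *Fau*, which encodes a protein of the cytosolic ribosome, with 3252 and 2642 (-0.30), and *Mrpl32* (-0.14) faces the proteasome subunit gene *Psma2* (-0.15). Of the 22 partners with a value, 15 were lower in KO and 7 by 1.2-fold, against 56.7% and 18% of all genes. The members of these pairs were lower in 19 cases, and in 12 pairs both genes were lower. Partners also went the other way, such as *Helq* (0.21) beside *Mrps18c* (-0.42). Whether the genes of a pair move together was not tested. The exons of 23 members (29.9%) overlap those of another protein-coding gene, a share that was not counted over all genes. Among these members are *Mrps11* and *Mrpl46*, which overlap each other, and *Mrpl47*, *Mrpl21*, *Mrps6*, *Mrps25* and *Mrpl19*. The strand used in counting is not given in the sources used here, so reads of such neighbours may be shared. There are 5 annotated pseudogenes named after *Mrps36*, *Mrpl48* and *Mrpl23*, whose values are uncertain for that reason.

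Promoters of nuclear genes for mitochondrial proteins are known for binding sites of NRF1, of ETS factors such as GABP and of YY1. RefSeq promoters (GRCm38.p6, 250 bases before to 50 after the start) were found for 68 members, 74 promoters in all, and were searched on both strands. The NRF1 core GCATGCG was held by 8 of 74 (10.8%), against 5.43% of the promoters of the genes in the table and 3.58% of all promoters. The ETS core CCGGAAG was held by 25 of 74 (33.8%), against 14.9% and 8.86%, and the YY1 core AAGATGG by 13 of 74 (17.6%), against 6.55% and 6.34%. Among 72 promoters of cytosolic ribosomal proteins the shares were 6.94% for NRF1, 34.7% for ETS and 15.3% for YY1, so the ETS and YY1 shares of the members were close to those of the other ribosome. The NRF1 core overlaps its own reverse complement in most of its letters, and the ETS and YY1 cores can share the letters AAG, which they did in 0 member promoters. Printed here are 4 members with an NRF1 core in the 130 bases before the start. They were taken only from the members described above for an extreme ratio or for recovered reads. The 2 members with the ETS core in more than 1 place there are printed too. Each run is the 130 bases before the start on the strand of the gene, 5′ to 3′, with the matched NRF1 letters in capitals for *Mrpl9* (chr3:94443206-94443335, plus strand), *Mrpl33* (chr5:31613821-31613950, plus strand), *Mrpl32* (chr13:14613038-14613167, minus strand) and *Mrpl39* (chr16:84735245-84735374, minus strand), and the matched ETS letters in capitals for *Mrpl53* (chr6:83108978-83109107, plus strand) and *Mrpl43* (chr19:45006443-45006572, minus strand).
Mrpl9: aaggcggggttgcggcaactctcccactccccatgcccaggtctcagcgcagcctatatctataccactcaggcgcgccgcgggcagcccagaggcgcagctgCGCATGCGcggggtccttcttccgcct
Mrpl33: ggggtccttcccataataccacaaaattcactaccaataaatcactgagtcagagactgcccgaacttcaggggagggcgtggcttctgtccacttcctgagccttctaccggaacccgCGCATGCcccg
Mrpl32: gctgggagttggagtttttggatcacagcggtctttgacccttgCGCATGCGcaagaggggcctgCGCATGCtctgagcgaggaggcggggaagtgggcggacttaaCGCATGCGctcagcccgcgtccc
Mrpl39: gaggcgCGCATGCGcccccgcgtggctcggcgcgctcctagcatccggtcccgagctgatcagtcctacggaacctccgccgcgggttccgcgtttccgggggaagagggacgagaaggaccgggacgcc
Mrpl53: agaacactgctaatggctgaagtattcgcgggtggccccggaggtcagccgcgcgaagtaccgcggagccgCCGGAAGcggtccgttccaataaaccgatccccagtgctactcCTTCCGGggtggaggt
Mrpl43: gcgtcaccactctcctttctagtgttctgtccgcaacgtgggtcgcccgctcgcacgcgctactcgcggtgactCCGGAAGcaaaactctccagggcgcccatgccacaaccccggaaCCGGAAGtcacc

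The start meant here is that of the RefSeq promoter. By the GENCODE gene positions, the runs of *Mrpl33* and *Mrpl39* lie inside the gene, and those of *Mrpl9*, *Mrpl32* and *Mrpl53* do so in part. Counted from the RefSeq start, the NRF1 letters begin at position -27 in *Mrpl9*, -11 in *Mrpl33* and -124 in *Mrpl39*, and *Mrpl32* holds 5 overlapping or separate matches between -86 and its start. The log2 ratios of these genes were 0.22, -0.07, 0.11 and -0.14. These 4 were picked in part by their ratio, since the 5 highest and 5 lowest members could be printed for that alone. Their ratios therefore say nothing about members with the core in general, and a link of the core with the ratio was not tested. In *Mrpl53* the ETS core begins at -59 and -16 and in *Mrpl43* at -56 and -12, and the log2 ratios were -0.21 and -0.01. A match of letters is a description of the sequence, and binding was not measured.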

How the data were processed

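RNAseq libraries of 6 liver RNA pools, 3 WT and 3 KO, were grouped by the genotype in their labels. Per the labels, mm10 was the genome build and HISAT2, StringTie, Cufflinks, GATK, Bowtie2 and RSEM were among the tools, with no roles given. The authors deposited 1 expression signal per genotype for 16123 genes, together with the log2 ratio, p-value and adjusted p of their DESeq2 comparison, which were not used here. Counts of clean reads and percent values of mapped, uniquely mapped and ribosomal RNA reads were deposited by the authors per library. The planned choice for a table with 1 value per genotype was followed: ratios used a pseudocount of 1, a limit of 1.2-fold and no test.

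Whole reads per library were recovered from the deposited signal. The worth of a read in each library came from values shared by at least 20 genes. Sums up to 400 were solved directly (8063 of 8081 genes resolved). For sums up to 900, added after seeing the data, the log2 ratio of genotypes had to lie between 1 and 1.4 times the deposited one, give or take 0.04. Each library had to lie between 0.3 and 2.2 times the mean of its genotype (1783 of 2046 resolved). Of 1415 genes solved without these conditions, 92.3% met both. On simulated data, 146 of 150 genes in the lower part of that range were resolved, all 146 rightly, and 125 of 150 in the upper part, 124 rightly. Where a library lay outside its range, 28 of 100 were resolved and 12 rightly. limma 3.58.1 (R 4.3.3, trend) was fitted to log2(normalized reads + 1) of 5090 genes with a sum of at least 60. In a simulation of this comparison on 5090 genes it called 182 of 200 genes changed 3-fold and 8 unchanged genes. No member passed 1.5-fold by the deposited values, and the simulation held no effect of length between libraries. It therefore does not show how many differences of the members' size would be called. p-values measure the spread between pools. With 37 or fewer reads in the lowest libraries of some members, counting error alone reached 18.0% of a value.

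Lengths, positions and neighbours came from GENCODE M21 (GRCm38), in which all 77 members were found, and promoters from RefSeq. The length listed in the deposited table, whose derivation is not given in the sources used here, set the length classes. *Ict1*, also known as Mrpl58, is outside the rule and was left out of the members. Named are the 5 highest and 5 lowest members by ratio and by level per kb, members with recovered reads, the Mrps18 paralogs, *Mrpl12*, *Mrpl11*, *Mrps12*, *Mrps2*, the 5 subunits with other names, and genes of the 4 pathway lists past 1.2-fold with a mean of at least 50. Neighbouring genes, printed promoters, *Trmt10c* and *Hsd17b10* were chosen after their values were seen. Members and lists were chosen with earlier results of these data known.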

Additional observations from a re-analysis of the deposited data

How the results depend on the processing

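Pseudocounts of 0.1 and none cannot change the sign of a ratio, and all 77 members have a mean of at least 50. These settings could therefore not move the median log2 ratio of the members across 0. It was -0.13 after centring on the median of genes whose mean reached 10, and -0.05 after centring on the length class. The count of members lower in KO by 1.2-fold, 20 as deposited, was 13 after centring on the median of genes whose mean reached 10, 6 after centring on the same length class, a choice made after seeing the data, and 0 with a limit of 1.5-fold. The count higher in KO, 0 as deposited, was 1 under either centring. Of 77 members, 4 changed sign under the first of these centrings, *Mrpl37*, *Mrpl40*, *Mrpl43* and *Mrpl15*. Centring on the length class left 48 below 0, against 69 as deposited. Of the 5 members highest by level per kb, 3 remained with the median annotated transcript and 3 with the listed length, a choice made after seeing the data. limma called 0 of the 10 members with recovered reads at an adjusted p under 0.05 in each setting run, with a lowest adjusted p of 0.446. At an unadjusted p under 0.05 it called *Mrpl47* without WT-3 (-0.96), where 4.36% of the 5090 genes were called. Without KO-1 it called *Mrpl1* (-1.19) and 5.07% of the 5090 genes. *Mrpl1* was also called with a term for WT-1 and KO-1, which have the largest size factor (-0.73), where 8.55% of the genes were called. At an adjusted p under 0.05 limma called 4 of 5090 genes with that term, against 0 without it. Of the 90 values of these members under alternatives, 78 kept their sign and 5 members changed sign in at least 1. The term for WT-1 and KO-1, and dropping the minimum sum of 60, left every log2 difference as it was. Values under these settings could not change sign, so 78 of 90 overstates how stable the signs were. A pseudocount of 0.5 hardly moved the differences. All changes of sign came when 1 library was left out. The difference in mapping rate ran from -0.132 to 0.793 percentage points when each pool was left out, and that in clean reads from 717558 to 1661830. No paired analysis was possible because the genotypes share only pool number 2 and the recovered libraries carry no pool number. Depth limits recovery to weakly read members, so 67 members have no value per library.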
